A study of Mus musculus with 6 samples.

Results

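Zscan4e, Tcstv1 and Tcstv3 are genes of the two-cell-like state of mouse embryonic stem cells (mESCs), and each was read by 1 probe among 59729 on the arrays. Total RNA came from 3 cultures each of fSOX2-Tg and fS248A-Tg mESCs and was hybridized to 6 Cy3 arrays. Both lines descend from 2TS22C mESCs, in which endogenous Sox2 is deleted and an untagged Sox2 transgene is silenced by the doxycycline in the medium of both lines. Each line carries a triple FLAG-tagged Sox2 transgene under the CAG promoter as its only source of SOX2, wild type in fSOX2-Tg cells and S248A, which cannot be O-GlcNAcylated at that serine, in fS248A-Tg cells. Transgenic cells were selected with puromycin, and colonies of ESC morphology were expanded. Each genotype is a single line, so the mutation and any other difference between the lines cannot be told apart.

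Embryonic stem cell cultures hold a small and changing set of cells that switch on transcripts of the two-cell embryo, the stage at which the mouse zygotic genome is activated, and then return to the usual state. Zscan4 genes encode proteins with a SCAN domain and zinc fingers, mark these cells, and are known for their part in telomere maintenance. Tcstv1 and Tcstv3, named as members of the two-cell-stage variable group, are expressed in the same window and have also been tied to telomere length. In bulk RNA from a culture, fewer cells in this state and less RNA per cell cannot be told apart.

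The scanner files name the Tcstv1 probe by the RefSeq transcript NM_018756 and the Tcstv3 probe by NM_153523, with 1 probe for each gene, so their levels played no part in the choice of probe. Both genes were chosen with earlier results of these data known, which limits their tests. The scanner files give no gene name for the Zscan4e probe. That probe was chosen by its difference between the lines on these arrays, since it owes its name to a match with the study's list of changed genes. Its difference, by pair too, is therefore given as a description, with no test. In the RefSeq table of GRCm38.p6, which is not the mm9 build of the array, chromosome 7 carries 9 Zscan4 entries. Of these, 5 are pseudogenes, Zscan4e among them. Tcstv1 and Tcstv3 lie on chromosome 13 with 26 listed genes between them. Which copies of these families each probe detects was not tested.

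The arrays differed in ways that bear on the values. The 75th percentile of the intensity ran from 184 to 457, and 66.0% to 83.1% of spots were well above background. Replicates 1 and 2 of both lines shared 1 slide and replicate 3 of both lines another, so slide and replicate 3 cannot be told apart. The array of fSOX2-Tg replicate 2 stood apart from its line. Over 17126 probes of the authors' processed values, its log2 differences from an fS248A-Tg array had a mean SD of 0.568 and those from an array of its own line one of 0.768. Of 18 markers of pluripotent cells, 9 of fibroblasts or feeder cells and 8 of endoderm, none carried an accession that could be named here, so the labelled cell type was not checked against them.

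All 3 genes had lower levels in fS248A-Tg mESCs in 3 of 3 pairs of equal replicate number, by amounts that differed from pair to pair. For Tcstv3 the differences were -0.13, -0.04 and -1.05 in pairs 1, 2 and 3. Zscan4e is counted as a description only, since its probe was chosen by its line difference. The fold in favor of fSOX2-Tg was 2.31 for Zscan4e, 2.20 for Tcstv1 and 1.33 for Tcstv3. Of all 19766 probes tested, 17.4% were lower in 3 of 3 pairs. The study called changes at a fold change of at least 1.5 with an unadjusted p under 0.05 in a paired test. By that paired test, run again here, neither Tcstv1 nor Tcstv3 passed. Below, the study's threshold means these cutoffs with p taken from limma, unless the paired test is named. In limma with the replicate number as a block, Tcstv1 passed that threshold and Tcstv3 did not. That threshold was passed downward by 5.59% of the probes tested, upward by 3.71% and in either direction by 9.30%. No probe had an adjusted p under 0.05 in that fit, where 1838 had an unadjusted p under 0.05. The methods' paired t-test gave 1 probe past adjustment on the authors' processed values.

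Values are given in the order of replicates 1, 2 and 3. Zscan4e had an intensity of 9198, 10957 and 1664 in the fSOX2-Tg cultures and of 7029, 2821 and 1076 in the fS248A-Tg cultures, all well above background. Its log2 level was 4.92, 4.58 and 3.18 in fSOX2-Tg and 3.97, 3.16 and 1.93 in fS248A-Tg cultures, where a level is the log2 intensity minus that of the array's 75th percentile. The lines overlapped, since fSOX2-Tg replicate 3 lay below fS248A-Tg replicate 1. Replicate 3 was the lowest of its line in both lines. The mean level was 4.23 ± 0.92 (SD, n = 3) in fSOX2-Tg and 3.02 ± 1.03 (SD, n = 3) in fS248A-Tg, and their difference was -1.21 with a standard error of 0.33. The difference was -0.96, -1.42 and -1.25 in pairs 1, 2 and 3.

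Tcstv1 had an intensity of 46126, 37133 and 18551 in the fSOX2-Tg cultures and of 28412, 21686 and 7630 in the fS248A-Tg cultures. Its relative log2 levels were 7.25, 6.34 and 6.66 in fSOX2-Tg and 5.98, 6.10 and 4.75 in fS248A-Tg. Every fS248A-Tg culture lay below every fSOX2-Tg culture, a separation that 7.97% of the probes tested showed in this direction. The nearest arrays were the 2 of replicate 2. The mean level was 6.75 ± 0.46 (SD, n = 3) in fSOX2-Tg and 5.61 ± 0.75 (SD, n = 3) in fS248A-Tg. The log2 fold change was -1.14 with a standard error of 0.40 (limma, unadjusted p = 0.0243, adjusted p = 0.530). By pair it was -1.27, -0.24 and -1.90, and it averaged -0.76 on the slide of replicates 1 and 2. The call at the study's threshold was lost without replicate 1, at -1.07, without replicate 3, at -0.76, and, in fits without the block, when fSOX2-Tg replicate 1 (-0.89) or fS248A-Tg replicate 3 (-0.71) was left out. It was kept without fSOX2-Tg replicate 2, the array that stood apart, at -1.34. By the methods' paired t-test it was not made, with the same log2 fold change of -1.14.

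Tcstv3 had an intensity of 1008, 1670 and 459 in the fSOX2-Tg cultures and of 1367, 1119 and 342 in the fS248A-Tg cultures. Its relative log2 levels were 1.73, 1.87 and 1.32 in fSOX2-Tg and 1.60, 1.82 and 0.27 in fS248A-Tg. In replicates 1 and 2 the lines were nearly level, and fS248A-Tg replicate 3 lay more than 1 log2 unit below every other culture. The mean level was 1.64 ± 0.28 (SD, n = 3) in fSOX2-Tg and 1.23 ± 0.84 (SD, n = 3) in fS248A-Tg. The log2 fold change was -0.41 with a standard error of 0.36 and a 95% interval from -1.24 to 0.43 (limma, unadjusted p = 0.291, adjusted p = 0.678). By pair it was -0.13, -0.04 and -1.05. The mean of the first 2 pairs, on 1 slide, was -0.09. Without fS248A-Tg replicate 3 and with no replicate block the log2 fold change turned to 0.07.

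**Figure D1:**
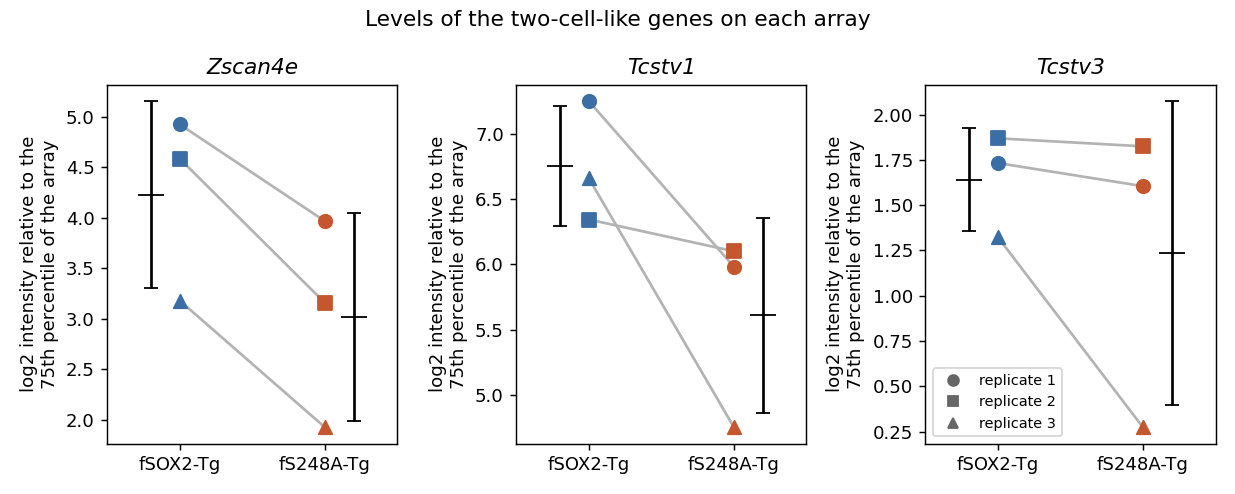
Levels of Zscan4e, Tcstv1 and Tcstv3 on the 6 arrays, as log2 intensity minus that of the array's 75th percentile, with a separate vertical scale for each gene. Symbols stand for replicate numbers, grey lines join equal numbers, and black bars are the mean ± SD of 3 cultures; all 9 lines slope down, and replicate 3 of fS248A-Tg is the lowest point for each gene.

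The log2 fold change kept its sign for Zscan4e and Tcstv1 under every way of processing plotted by setting. For Zscan4e it ran from -1.74, without fSOX2-Tg replicate 3, to -0.67, without fS248A-Tg replicate 3. Scaling moved the log2 fold changes of these genes little. Quantile normalization gave -1.23 for Zscan4e, -1.01 for Tcstv1 and -0.45 for Tcstv3, while the median of all probes tested moved from -0.096 to 0.016.

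**Figure D2:**
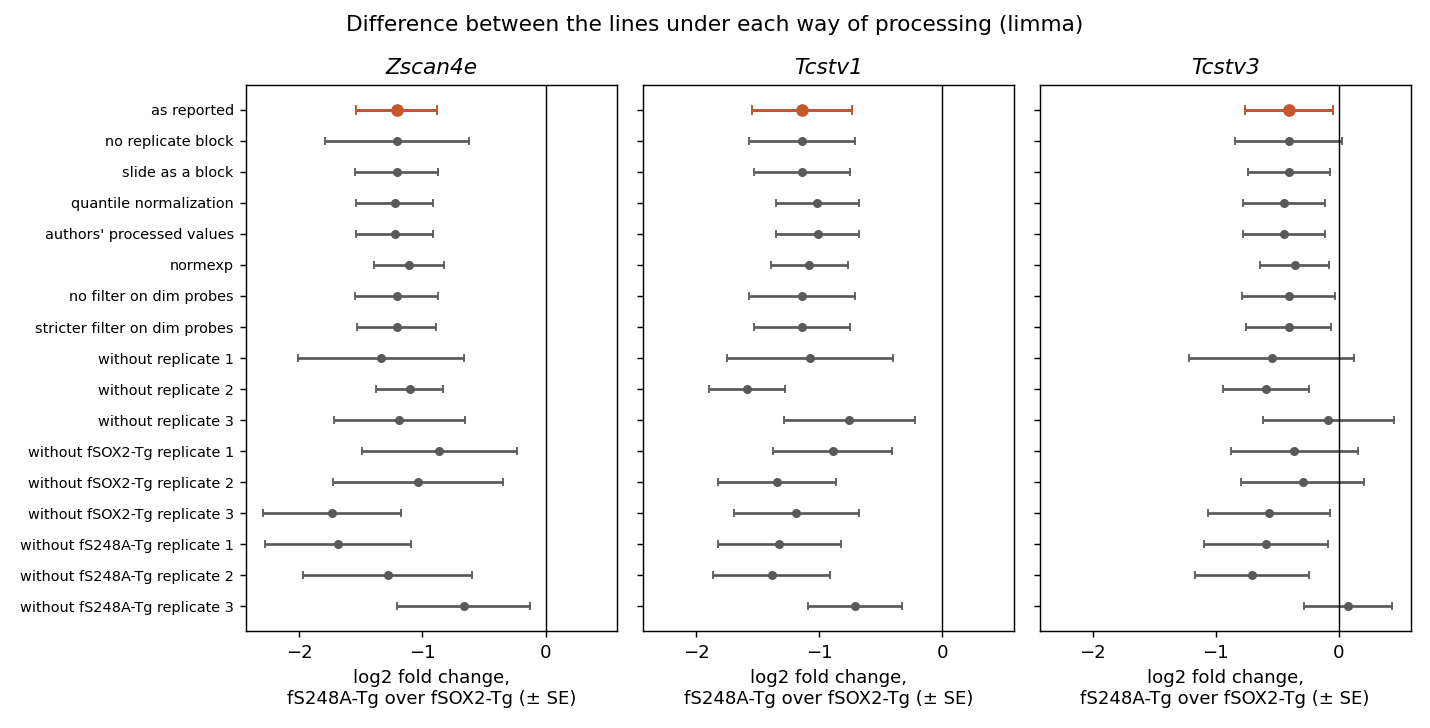
Log2 fold change of each gene, fS248A-Tg over fSOX2-Tg, under the fit reported (top) and 16 alternatives in limma, with the standard error as bars. Values for Tcstv3 lie nearest 0, and leaving out fS248A-Tg replicate 3 moves each gene toward 0, for Tcstv3 past it to 0.07.

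Zscan4e varied strongly between arrays of one line. Replicate 3, on a slide of its own, was the lowest in both lines, so a slide difference cannot be told apart from one between cultures. The SD of the 3 pair differences was 0.24 for Zscan4e, 0.84 for Tcstv1 and 0.56 for Tcstv3. Its highest and lowest fSOX2-Tg cultures differed 3.35-fold and its fS248A-Tg cultures 4.11-fold, each more than the 2.31-fold difference between the line means. Over both lines the 6 arrays spanned 7.97-fold for Zscan4e, 5.64-fold for Tcstv1 and 3.02-fold for Tcstv3. The pooled SD within lines was 0.98 for Zscan4e, and 5.04% of the probes tested had an SD at least as high. It was 0.62 for Tcstv1 and 0.63 for Tcstv3, values reached by 24.5% and 23.7% of the probes, beside a median of 0.45 over all probes. These shares depended on the scaling and on the background treatment. With quantile normalization they were 2.19%, 12.9% and 15.3% for Zscan4e, Tcstv1 and Tcstv3. With normexp they were 0.708%, 5.91% and 8.07% in the same order. Most of the spread of Tcstv3 came from the fS248A-Tg line, with an SD of 0.84 against 0.28 in fSOX2-Tg, and a difference between these SDs was not tested. Within an array, probes with repeated spots, 32 to 34 per array, had a median SD between spots of 0.147 to 0.456 on the log2 scale. Those above an intensity of 300, at most 14 per array, had one of 0.038 to 0.083. The scanner's own error estimate was 10.0% to 10.1% of the intensity for every spot of the 3 genes, at intensities from 342 to 46126. It therefore does not tell these spots apart. Each of the 3 genes had 1 spot per array.

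**Figure D3:**
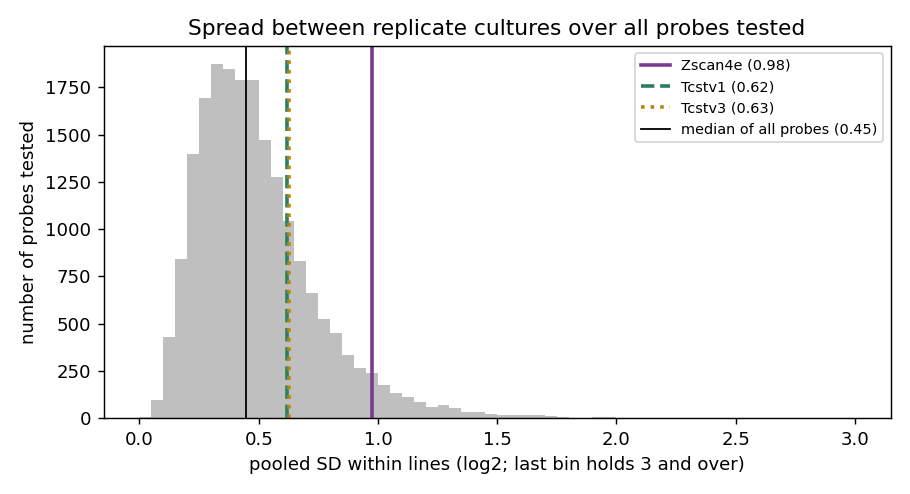
Number of the 19766 probes tested by their pooled SD between cultures of one line, in log2 units. This SD includes any difference between slides. Vertical lines mark the 3 genes and the median of all probes. Zscan4e, at 0.98, lies in the upper tail, while Tcstv1 and Tcstv3, at 0.62 and 0.63, lie together above the median of 0.45.

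Over the 6 arrays the 3 genes were positively correlated in each of the 3 pairs, but the size of r turned on few arrays. For Zscan4e and Tcstv1, Pearson's r was 0.81 and Spearman's rho 0.71. For Zscan4e and Tcstv3, r was 0.82 and rho 0.54. Both values are given as a description, since the line difference that chose the Zscan4e probe enters r. Tcstv1 and Tcstv3 had an r of 0.77 (two-sided exact permutation p = 0.115) and a rho of 0.37 (two-sided exact permutation p = 0.497). That test treats the arrays of both lines and both slides as exchangeable. On quantile-normalized values r was 0.93 for Zscan4e and Tcstv1, 0.86 for Zscan4e and Tcstv3 and 0.87 for Tcstv1 and Tcstv3.

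The array of fS248A-Tg replicate 3 was the lowest for each gene. Without it, r was 0.50 for Zscan4e and Tcstv1, 0.47 for Zscan4e and Tcstv3 and -0.15 for Tcstv1 and Tcstv3. For the first gene named in each pair, the 2 arrays farthest from its median were fS248A-Tg replicate 3 and fSOX2-Tg replicate 1. Tcstv3, never first in a pair, had fSOX2-Tg replicate 1 close to its median. Over the other 4 arrays r was -0.20, 0.50 and -0.57 in the same order. Without those 2 arrays r was thus negative for Tcstv1 with either other gene. For Tcstv1 and Tcstv3 it was negative without fS248A-Tg replicate 3 alone, and 0.81 without fSOX2-Tg replicate 1 alone. Leaving out extreme arrays narrows the range and can by itself lower r. Within the slide of replicates 1 and 2, with 4 arrays, r was 0.75, -0.04 and 0.08, and the other slide held 2 arrays only. Without fSOX2-Tg replicate 2, r stayed between 0.79 and 0.86.

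The order of the cultures differed from gene to gene. Zscan4e was highest in fSOX2-Tg replicates 1 and 2, Tcstv1 in fSOX2-Tg replicates 1 and 3, and Tcstv3 in fSOX2-Tg replicate 2 and fS248A-Tg replicate 2. With the line means taken off, r over the 6 arrays was 0.68, 0.80 and 0.79. Other probes tested reached correlations of this size. For Zscan4e and Tcstv1, 4.90% of them were at least as highly correlated with Zscan4e and 8.49% with Tcstv1. For Zscan4e and Tcstv3, the shares were 4.78% with Zscan4e and 8.52% with Tcstv3. For Tcstv1 and Tcstv3, they were 12.2% with Tcstv1 and 11.3% with Tcstv3. With the line means taken off, these shares were at most 14.6%.

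**Figure D4:**
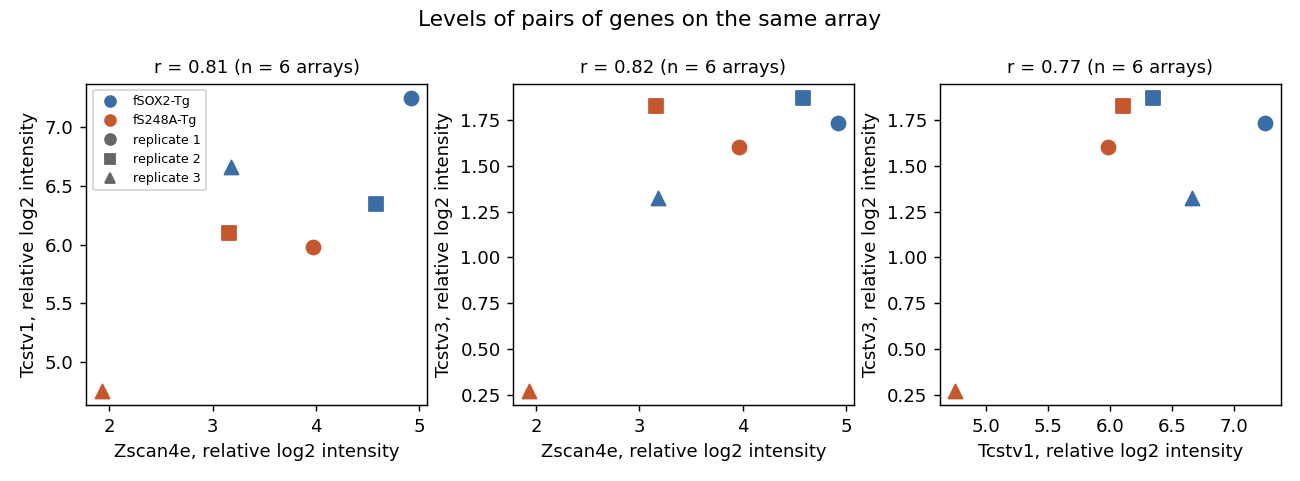
Relative log2 level of one gene against another on the same array, for the 3 pairs of genes, with color for the line and symbol for the replicate number. In each panel fS248A-Tg replicate 3 sits alone at the lower left, and the other 5 arrays give r of 0.50, 0.47 and -0.15 from left to right.

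BC147527 followed the 3 genes most closely among the 63 other probes tested that could be named through an accession. Likeness was Pearson's r over the 6 arrays with the mean of the 3 genes, each centered on its own mean. That mean ran from 0.89 in fSOX2-Tg replicate 1 to -1.43 in fS248A-Tg replicate 3. BC147527 is listed on chromosome 13 with 1 gene between it and Tcstv3. It had r = 0.99 and a rho of 0.94 with the mean, values for which it was picked, and 0.0304% of all probes tested, itself counted, reached that r. Its r was 0.95 with Zscan4e, 0.88 with Tcstv1 and 0.94 with Tcstv3, and its rho 0.94, 0.60 and 0.71. Shares of tested probes at least as highly correlated by r were 0.329%, 4.19% and 1.67% in the same order. Over the 4 arrays that remain without fS248A-Tg replicate 3 and fSOX2-Tg replicate 1, which also entered its choice, its r with the mean was 0.96.

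The level of BC147527 was 3.35, 3.27 and 2.63 in the fSOX2-Tg cultures and 2.82, 2.78 and 1.57 in the fS248A-Tg cultures. Replicate 3 was again the lowest of both lines, and the lines overlapped. The log2 fold change was -0.69 with a standard error of 0.33, and it did not pass the study's threshold. It is given as a description. The mean that picked BC147527 includes Zscan4e, whose line difference chose its probe. All 3 pairs had the lower level in fS248A-Tg, which falls under the same limit.

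The next probes by likeness were those of Gm16367 (r = 0.94), H2al2b (r = 0.93), E330014E10Rik (r = 0.91) and Ulbp1 (r = 0.83). Ulbp1 encodes a ligand of the immune receptor NKG2D. Without the same 2 arrays, their r ran from -0.09 for Gm16367 to 0.66 for E330014E10Rik. Among all probes tested, the 3 genes left out, 541, or 2.74%, had an r of at least 0.9 with the mean, and nearly all carry no gene name in the files.

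Other genes near Tcstv1 and Tcstv3 on chromosome 13 did not share one pattern. The window, drawn after the values were seen, ran from 12 listed genes before Tcstv1 to Tcstv3, the last gene of the chromosome in that table, and 6 of its other genes were tested. B020031M17Rik, listed between Tcstv1 and Tcstv3, had r = 0.65 with the mean of the 3 genes and a difference between the lines of -0.84 (standard error 0.46), and did not pass the threshold. Nim1k, a protein kinase gene listed before Tcstv1 in the window, had r = 0.77. Its log2 fold change was -1.10 with a standard error of 0.33, past the threshold. That is given as a description, since the window was drawn after the values were seen. Of all probes tested, 5.59% passed the threshold downward. Hmgcs1, an enzyme of cholesterol synthesis, had r = 0.63. Of all probes tested, 18.3% had an r at least that of B020031M17Rik, 10.6% that of Nim1k and 19.5% that of Hmgcs1. Without fS248A-Tg replicate 3 and fSOX2-Tg replicate 1, r was -0.46, 0.53 and -0.47 for these genes in turn. Nim1k was dim, with intensities from 41 to 204. Zfp131, a zinc finger gene, had r = -0.25. The position of these probes and the levels of the 3 genes were not tested against each other.

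A list of 83 other genes of the two-cell-like state was drawn up, but only 3 of them, AF067063, Tdpoz5 and Obox2, had a probe named through an accession, and none of 29 factors known to raise or hold down the state did. AF067063 is listed with 2 genes between it and Tcstv1. Its level was -1.62, -0.78 and -2.31 in the fSOX2-Tg cultures and -0.85, -0.90 and -1.55 in the fS248A-Tg cultures. The intensity ran from 37, on fSOX2-Tg replicate 3, to 267, on fSOX2-Tg replicate 2, below every intensity of the 3 genes. Unlike the 3 genes it was higher in fS248A-Tg cells in pairs 1 and 3, by 0.47 between the line means (standard error 0.35). That contrast with the 3 genes was not tested.

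Tdpoz5, of a family of TRAF and POZ domain genes, gave -1.71, -0.27 and -1.11 in fSOX2-Tg and -0.39, -0.35 and -1.01 in fS248A-Tg. Its intensity ran from 85 to 379. Its log2 fold change was 0.45 with a standard error of 0.39. Neither gene passed the threshold in either direction, and their r with the mean of the 3 genes was 0.17 for AF067063 and -0.09 for Tdpoz5. With the line means taken off, r was 0.63 for AF067063, whose replicate 3 was the lowest in both lines, and 0.265 for Tdpoz5. Without replicate 3 it was -0.74 and -0.79. The median log2 fold change of the 2 was 0.46, beside -0.096 over all probes tested. Obox2, an oocyte homeobox gene, was well above background on fSOX2-Tg replicates 2 and 3 only and was not tested.

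**Figure D5:**
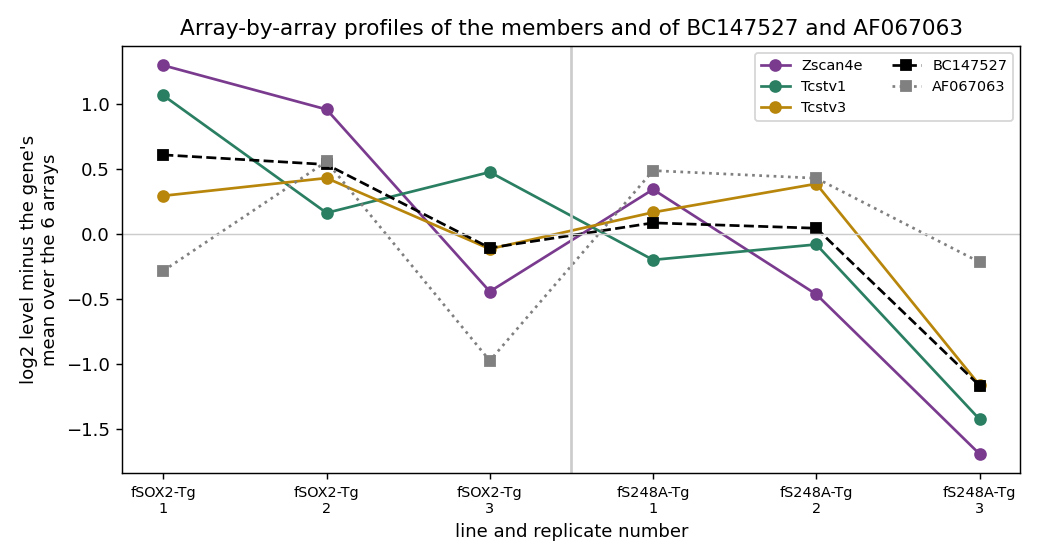
Relative log2 level of each gene minus its mean over the 6 arrays, for Zscan4e, Tcstv1, Tcstv3, BC147527 and AF067063, by line and replicate number. BC147527 (dashed) runs with the 3 genes from its highest point in fSOX2-Tg replicate 1 to its lowest in fS248A-Tg replicate 3, while AF067063 (dotted) is lowest in fSOX2-Tg replicate 3.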

How the data were processed

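The authors deposited scanner output as intensity per spot, background subtracted by Feature Extraction 11.0.1.1 and not normalized between arrays, and a log2 table of 23949 probes. Per the file headers the design is on mm9. Set against quantile-normalized scanner intensities, the deposited log2 values differed with an SD of at most 0.033 per array; all 6 columns were matched by name. Samples were grouped by the line and replicate number in their titles.

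Here log2 intensity was taken relative to the array's 75th percentile over spots outside controls. Outlier spots were left out and spots of a probe averaged. Probes of the log2 table well above background on all 3 arrays of a line were tested, 19766 in all; 13 with an outlier spot were left out. limma 3.58.1 in R 4.3.3 was run with the replicate number as a block, since the study's legend names a paired test, and Benjamini-Hochberg adjustment. Of 123 probes with a RefSeq accession, 116 were named through GRCm38.p6. Genes named are the 3 genes, listed genes with an accession, and the 5 named probes most like the 3 genes in profile; the chromosome 13 neighbors were added after their values were seen. The planned permutation test of the correlations was run for all 3 pairs, adjusted over them; for the pairs with Zscan4e, whose line difference chose its probe, r is given as a description. The fit was tested on simulated data. Members and lists were chosen with earlier results of these data known. The labels call the cultures biological triplicates. The number of arrays limits precision.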

Additional observations from a re-analysis of the deposited data

How the results depend on the processing

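Alternatives covered the block (none, or the slide), the scaling (quantile, or the authors' table), normexp on median signals with offset 50, 2 other filters, the methods' paired t-test and left-out replicates. Neither Tcstv gene had another probe, so that alternative was not run. For Tcstv1 the methods' t-test did not pass the study's threshold on either set of values, at -1.14 and -1.01, and with replicates or arrays left out the log2 fold change ran from -1.59 to -0.71. For Tcstv3 that range was -0.70 to 0.073, reversed only without fS248A-Tg replicate 3, and for Zscan4e -1.74 to -0.67.

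With no replicate block the log2 fold changes were the same, -1.21, -1.14 and -0.41, with standard errors of 0.58, 0.43 and 0.43, and no call of these genes changed. Around the line means, arrays of the same number correlated at 0.23, -0.24 and -0.0034, so equal numbers did not deviate together throughout. Number 3 also marks a slide.

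For Zscan4e and Tcstv1, r was 0.93 (0.925 with quantile normalization and 0.926 on the authors' processed values), and 0.68 with line means taken off. For Zscan4e and Tcstv3, it was 0.86 with quantile normalization (0.859), 0.856 on the authors' values and 0.87 with normexp. With 1 replicate number or 1 array left out r ran from 0.50 to 0.92 for Zscan4e and Tcstv1, from -0.036 (without replicate 3) to 0.95 for Zscan4e and Tcstv3, and from -0.15 to 0.88 for Tcstv1 and Tcstv3, whose test was passed under none of these settings. The planned test of the Zscan4e pairs was not passed in the main setting, and its outcome varied with scaling and background treatment. It is not read as support in any setting, since the line difference that chose the Zscan4e probe enters r. With fS248A-Tg replicate 3 and fSOX2-Tg replicate 1 left out, r was -0.20, 0.50 and -0.57 in the same order of pairs. The cause was not tested.

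Over all probes, 733 were higher and 1105 lower at the study's threshold. The paired t-test gave 163 and 391, and on the authors' values 320 and 344, with 1 past adjustment. With replicates left out the counts ran from 356 to 2552 higher, from 421 to 3359 lower and from 0 to 53 past adjustment, the highest threshold counts without replicate 2. Of the calls 39.9% were higher, and 54.2% with quantile normalization.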
